A study of Mus musculus with 5 samples.

Results

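Conjugating detoxification enzymes attach a polar group to a reactive or fat-soluble compound, and the genes of these families were followed here in tracheal epithelium rebuilt from transplanted cells. Members were all mouse genes whose symbol starts with Gsta, Gstm, Gsto, Gstp, Gstt, Gstk, Gstz, Mgst, Ugt1, Ugt2 or Sult and that reached at least 20 unique molecular identifiers (UMIs, each one counted RNA molecule) over all mouse cell barcodes of the 5 libraries. Of 65 such symbols in the files, 37 were members: 21 cytosolic and mitochondrial glutathione S-transferases, 3 microsomal glutathione S-transferases, 5 UDP-glucuronosyltransferases and 8 sulfotransferases. The other 28 stayed under the minimum, and 19 of them had no UMI. Because members were chosen by their summed UMI count, that they are detected is not a result. The members nearest the minimum were Sult1c2 with 31 UMIs and Sult5a1 with 48, and the genes just under it were Ugt1a2 with 19 and Sult6b1 with 13.

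Droplet single-cell RNA-seq had been run on tracheas of adult wild type mice of strain 129 X1/S1. The tracheas of 2 recipients, injured with 2% polidocanol and given 6e6 iBCs (basal cells made from mouse embryonic stem cells) 5 hours later, were taken at day 40 and at day 56 after transplantation. From each recipient the GFP+ cells gave a donor-derived library and the GFP- cells an endogenous library, both sorted as live (Calcein Blue+). Another trachea, neither injured nor transplanted, gave 1 control library sorted on Calcein Blue alone. Each day is therefore 1 animal, days cannot be told apart from animals, and donor origin cannot be told apart from the stem cell line, whose strain the labels do not give.

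Glutathione S-transferases join the tripeptide glutathione to electrophiles such as products of lipid peroxidation. The microsomal forms belong to a separate family of membrane proteins, some of which also take part in leukotriene synthesis. UDP-glucuronosyltransferases of the endoplasmic reticulum add glucuronic acid, and cytosolic sulfotransferases transfer sulfate from the carrier PAPS to phenols, steroids, catecholamines and other alcohols. In the airway these enzymes are best known from secretory cells, which also hold the oxidative enzymes that make many of their substrates.

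The RefSeq promoter table of GRCm38.p6 held 45 promoters of 34 members. The 250 bases before the start site are printed for the members that carry the main patterns: Sult1d1, Gstk1 and Gstm5, which were low in donor-derived cells, and Mgst1, which was high in donor-derived basal-like cells. Capitals mark the antioxidant response element core TGACNNNGC and the xenobiotic response element core GCGTG, each searched on both strands.

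Sult1d1, chr5:87569007-87569256, minus strand: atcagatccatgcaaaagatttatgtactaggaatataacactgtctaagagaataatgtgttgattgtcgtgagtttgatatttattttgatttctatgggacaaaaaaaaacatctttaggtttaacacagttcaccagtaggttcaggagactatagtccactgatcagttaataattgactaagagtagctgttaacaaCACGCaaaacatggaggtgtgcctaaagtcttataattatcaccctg

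Gstk1, chr6:42245685-42245934, plus strand: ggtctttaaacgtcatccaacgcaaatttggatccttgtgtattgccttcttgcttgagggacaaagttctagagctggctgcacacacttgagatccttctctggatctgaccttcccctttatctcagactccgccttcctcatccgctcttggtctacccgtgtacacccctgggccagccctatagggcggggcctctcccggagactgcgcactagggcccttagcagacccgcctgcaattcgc

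Gstm5, chr3:107895604-107895853, plus strand: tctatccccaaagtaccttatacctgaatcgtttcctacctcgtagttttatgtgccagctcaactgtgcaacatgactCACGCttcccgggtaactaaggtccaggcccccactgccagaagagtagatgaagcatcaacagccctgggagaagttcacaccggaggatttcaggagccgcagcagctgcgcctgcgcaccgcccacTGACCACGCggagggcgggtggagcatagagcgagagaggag

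Mgst1, chr6:138140277-138140526, plus strand: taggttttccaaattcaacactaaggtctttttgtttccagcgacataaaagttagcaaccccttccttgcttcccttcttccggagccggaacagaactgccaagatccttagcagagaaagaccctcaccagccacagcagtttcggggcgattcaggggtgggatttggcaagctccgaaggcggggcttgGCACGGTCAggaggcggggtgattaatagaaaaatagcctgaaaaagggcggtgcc

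The antioxidant core was found before 4 members (Gsta3, Gstm5, Gstm7 and Mgst1). It was in 4 of the 45 member promoters, and 10.2% of all 32851 promoters of that length held it. The xenobiotic core was found before 10 members (Gsta2, Gstm1, Gstm5, Gstp1, Gstp3, Mgst3, Sult1b1, Sult1d1, Sult2b1 and Ugt1a5). It was in 11 of the 45 member promoters, against 28.2% of all promoters. In the Gstm5 promoter the antioxidant match and 1 of 2 xenobiotic matches overlap. A match shows only that the letters are there. CpG dinucleotides, which had a median of 6 over all promoters, numbered 2 in the Sult1d1 promoter, 10 in that of Gstk1, 13 in that of Gstm5 and 10 in that of Mgst1 shown here, while the Ugt2b34 promoter had 0.

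Many members lie in gene clusters. By GENCODE vM21 on GRCm38, 7 Gstm genes sit together on chromosome 3, in the order Gstm5, Gstm7, Gstm6, Gstm3, Gstm2, Gstm1 and Gstm4. Sult1b1, Sult1d1 (chr5:87554645-87569027, minus strand) and Sult1e1 are neighbours on chromosome 5, which also holds Ugt2b34 (chr5:86889767-86906937, minus strand). Gstt3, Gstt1 and Gstt2 are neighbours on chromosome 10, and Gstp1, Gstp2 and Gstp3 on chromosome 19. Some copies cannot be separated by short 3′ reads: of the 50-base stretches in the last 400 bases of the transcript, Gstp1 shared 91.2% and Gstp2 100% with each other or a pseudogene, and Gsta1 shared 87.2% and Gsta2 46.7% with their relatives. The Ugt1a genes overlap in their exons on 1 strand. Values for Gstp1, Gstp2, Gsta1, Gsta2 and the Ugt1a genes are therefore uncertain as to the copy.

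After removal of 192 barcodes with over 10% human UMIs (all in the control library), 38 of low quality and 48 doublets, 6554 cells remained. The 5 libraries had a median of 10028 to 12796 UMIs per cell, and no 2 libraries shared more than 2 barcodes. Clusters were named from fixed marker lists. The cells numbered 657 and 480 basal-like, 147 and 385 secretory-like and 41 and 117 ciliated-like in the donor-derived libraries of day 40 and day 56, an order of days kept from here on. The endogenous libraries held 344 and 228 basal-like, 242 and 182 secretory-like and 231 and 194 ciliated-like cells, and the control library 69, 242 and 154. Different clusters filled each class in the groups: clusters 3, 9 and 10 (donor-derived) and 2 (endogenous and control) for basal-like cells, 5 and 1 for secretory-like cells, and 15 against 6 and 11 for ciliated-like cells. Some cells fell in clusters in which at least 90% of recipient cells came from the other gate: 36 and 11 of the donor-derived and 1 and 5 of the endogenous cells of these classes. Of the donor-derived ciliated-like cells, 22 of 41 at day 40 and 112 of 117 at day 56 lay in cluster 15, and the rest in clusters of endogenous cells, so ciliated-like results are given with and without them.

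Levels are in CPM, the UMIs of a gene per 1e6 UMIs of that class in that library. Differences between donor-derived and endogenous cells are log2 fold changes with their standard error from edgeR's quasi-likelihood test on UMIs summed per library, with p-values adjusted by Benjamini-Hochberg over all genes tested, and a gene is called at an adjusted p under 0.05. The fitted changes use TMM scaling, and unscaled CPM ratios would be 0.13 higher on the log2 scale in basal-like cells, 0.30 in secretory-like cells and 0.10 in ciliated-like cells.

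Among the 3 classes, the sum over all members was lowest in donor-derived basal-like cells. It was 2374 and 3591 CPM there, against 5292 and 5703 CPM in the endogenous libraries and 6693 CPM in the control. Secretory-like cells held 5607 and 5592 CPM donor-derived, 5772 and 5889 CPM endogenous and 6094 CPM in the control, so the groups lay close together. Ciliated-like cells held 5057 and 4433, 4881 and 5072, and 6063 CPM in the same order. The largest family sum, that of the cytosolic and mitochondrial glutathione S-transferases, was spread over several genes, among them Gsto1, Gsta4, Gstm1 and Gstm2. In basal-like cells it was 1762 and 2731 CPM donor-derived, 3438 and 3937 CPM endogenous and 4584 CPM in the control. The summed sulfotransferase level was 35.7 and 35.6 CPM in donor-derived against 1365 and 1325 CPM in endogenous basal-like cells, whereas microsomal glutathione S-transferases stood at 563 and 816 against 366 and 334 CPM. Of the endogenous sulfotransferase UMIs, 4903 of 4951 and 3267 of 3288 were from Sult1d1, and within the microsomal family Mgst1 was called and Mgst2 and Mgst3 were not. T, NK and B cells of the endogenous libraries held 233 and 385 CPM of all members.

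**Figure D1:**
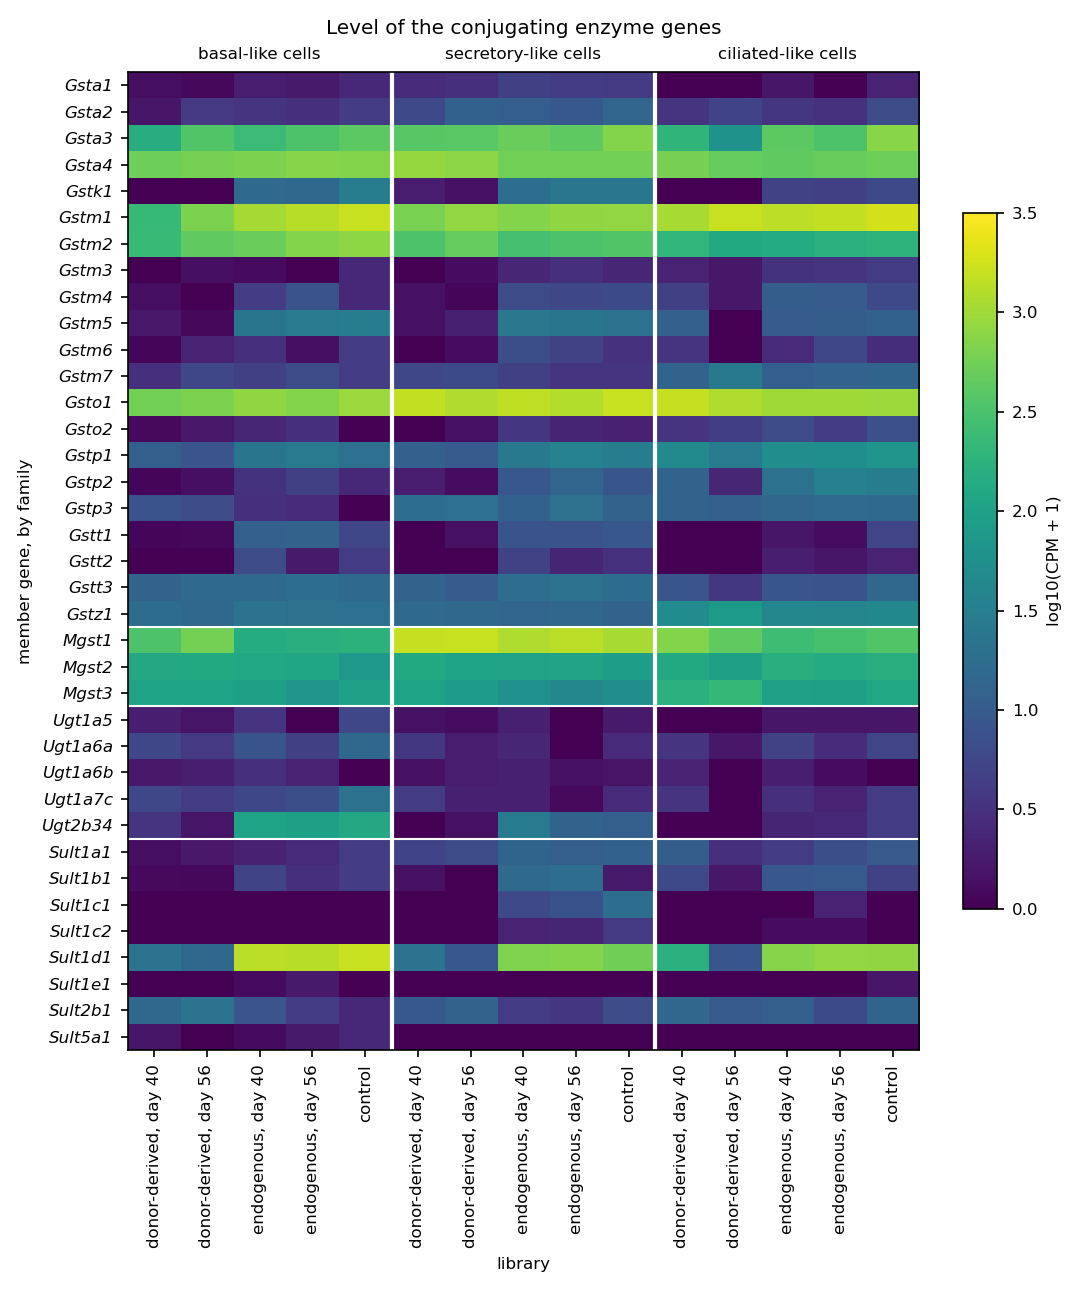
Colour shows the level of each of the 37 members as log10(CPM + 1) in each library, in each of the 3 epithelial classes, with white lines between the families. Colours are to be read along a row: Sult1d1 is darker in donor-derived than in endogenous and control columns of each class. The donor-derived column of day 40 in ciliated-like cells (164 CPM) is the brightest donor-derived one for Sult1d1. Gstk1 is darker in donor-derived than in endogenous columns of each class.

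In basal-like cells 8 of the 23 members tested were lower in donor-derived cells and 3 were higher. Sult1d1, Ugt2b34, Gstk1, Gstt1, Gstm5 and Gstm4 were lower many-fold, and Gstp1 and Gsto1 by less. Over all 11094 genes tested, 8.36% were called lower and 7.91% higher. The median log2 fold change was -0.57 over the members tested and 0.01 over all genes. The other 14 members had too few UMIs to be tested. A gene such as Gstk1, with no UMI in donor-derived basal-like cells, could enter the test only through the endogenous libraries, so the counts describe the members and rest on that filter.

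Sult1d1, a sulfotransferase of catecholamine and phenol metabolites, was at 20.5 and 13.9 CPM in donor-derived and at 1352 and 1316 CPM in endogenous basal-like cells, with 1583 CPM in the control. Its log2 fold change was -6.39 (SE 0.21, n = 2 libraries per group, edgeR adjusted p = 6.4e-06). The donor-derived UMIs, 168 and 74, came from 3.81% and 3.96% of the basal-like cells, whereas 92.2% and 86.4% of endogenous basal-like cells had a UMI. T and NK cells of the endogenous libraries had 16.7 and 14.3 CPM (counting intervals 5.43 to 39.1 and 7.64 to 24.5), and the donor-derived libraries held no such cells to compare. Without cells in clusters of the other gate it was 5.00 and 6.65 CPM. Ugt2b34, a glucuronosyltransferase, was at 2.44 and 0.564 CPM in donor-derived and at 107 and 96.7 CPM in endogenous basal-like cells, with 128 CPM in the control. It was lower by a log2 fold change of -6.04 (SE 0.36, edgeR adjusted p = 0.00011). No donor-derived library came near an endogenous one for either gene.

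Gstk1, Gstt1, Gstm5 and Gstm4 each had at most 6 UMIs in a donor-derived library of basal-like cells. Gstk1, the kappa-class enzyme of mitochondria and peroxisomes, had 0 UMIs in both donor-derived libraries and 14.6 and 13.7 CPM in the endogenous ones, with 28.9 CPM in the control. Taking 3 UMIs per library as the floor, it was at least 30.4-fold lower (edgeR adjusted p = 0.00017). Gstt1, of the theta class, had 1 UMI in each donor-derived library and 11 and 12.1 CPM in the endogenous ones, a pooled ratio of 77.5 (95% counting interval 20.7 to 652, edgeR adjusted p = 0.00016). Gstm5 was at 0.731 and 0.188 CPM against 21.8 and 26.2 CPM, and its log2 fold change was -5.60 (SE 0.41, edgeR adjusted p = 7e-05). Gstm4 had 3 and 0 UMIs, 0.366 and 0 CPM, against 3.31 and 6.85 CPM, a pooled ratio of 21.4 (counting interval 6.63 to 109.7). Its call (edgeR adjusted p = 0.0067) was lost without the endogenous library of day 56 (0.098), and the range over its alternatives was 1.7e-07 to 0.098. Control levels of Gstt1, Gstm5 and Gstm4 were 4.56, 28.9 and 1.52 CPM, the last from 1 UMI.

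Smaller decreases were called for 2 members. Gstp1, of the pi class, was at 10.4 and 7.34 CPM donor-derived and at 22.1 and 27.0 CPM endogenous, with 18.2 CPM in the control, and fell by 1.56 on the log2 scale (SE 0.25, edgeR adjusted p = 0.0032), with the reservation that its reads match Gstp2. Gsto1, an omega-class enzyme that also reduces dehydroascorbate, was at 575 and 639 against 841 and 708 CPM, with 936 CPM in the control. Its fold change of -0.48 (SE 0.13, edgeR adjusted p = 0.043) was not called in every reading: the adjusted p was 0.072 without the donor-derived library of day 40, 0.39 and 0.089 without the endogenous library of day 40 or day 56, and 0.052 by DESeq2.

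Higher in donor-derived basal-like cells were a membrane-bound transferase, a sterol sulfotransferase and a pi-class transferase. Mgst1, which acts on lipid hydroperoxides, was at 327 and 577 CPM donor-derived, at 148 and 154 CPM endogenous and at 179 CPM in the control. It was higher by a log2 fold change of 1.45 (SE 0.28, edgeR adjusted p = 0.021). Sult2b1, which sulfates cholesterol and related sterols, was at 14 and 20.7 against 7.44 and 3.22 CPM, with 1.52 CPM in the control, and rose by 1.48 (SE 0.38, edgeR adjusted p = 0.035). Gstp3 was at 6.82 and 5.46 against 1.93 and 1.61 CPM, with 0 UMIs in the control, where 3 UMIs are 4.56 CPM, and rose by 1.64 (SE 0.43, edgeR adjusted p = 0.034). The groups did not overlap for these 3 genes, but they did not for the uncalled Mgst2 either. How many of all genes did not overlap was not counted. These calls were lost in 3 of 15 alternatives for Mgst1, 3 for Sult2b1 and 7 for Gstp3. For Mgst1 the adjusted p was 0.19 without the endogenous library of day 40 and 0.17 without that of day 56, and for Sult2b1 0.16 without that of day 56. For Gstp3 it was 0.16 without the donor-derived library of day 40 and 0.18 without either endogenous library. Other clusterings ended calls too: Leiden resolution 0.5 those of Mgst1 (0.075) and Gstp3 (0.16), resolution 2.0 those of Sult2b1 (0.062) and Gstp3 (0.12), and joining the cluster led by Sftpc and Lmo1 those of Sult2b1 (0.07) and Gstp3 (0.10). DESeq2 did not call Gstp3 (0.18).

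Members with at least 50 CPM that were not called in basal-like cells included the most frequently counted mu-class genes. Gstm1 was at 219 and 649 CPM donor-derived and at 1076 and 1333 CPM endogenous, with 1594 CPM in the control, a fold change of -1.60 with a wide error (SE 0.65, edgeR adjusted p = 0.26). Gstm2 was at 231 and 437 against 501 and 703 CPM (-0.98, SE 0.38, edgeR adjusted p = 0.20), and Gsta4, which clears hydroxynonenal, at 538 and 598 against 648 and 726 CPM (-0.40, SE 0.12, edgeR adjusted p = 0.062). In all 3 genes both groups were lower at day 40 than at day 56. With the recipient as a replicate block Gstm2 and Gsta4 were called lower (edgeR adjusted p = 4.2e-10 and 0.0038). That fit called 13 of 23 members tested, and 3139 of all 11094 genes. Of 15 alternatives, Gsta4 was called in 7, Gstm2 in 4 and Gstm1 in 2, among them Gstm2 by DESeq2 (0.0092). Without the donor-derived library of day 56, Gstm1, Gstm2 and Gsta4 were called lower (adjusted p = 1.2e-06, 0.00051 and 0.035), and without that of day 40, Gstm1 was (0.00035). Gsta3 was at 149 and 356 against 245 and 329 CPM, and the groups overlapped (-0.31, SE 0.51, edgeR adjusted p = 0.78, and 0.0018 without the donor-derived library of day 56). Mgst2 was at 129.9 and 134 against 122 and 114 CPM (0.03, SE 0.12, edgeR adjusted p = 0.93), and Mgst3 at 106 and 106 against 95.4 and 65.3 CPM (0.26, SE 0.18, edgeR adjusted p = 0.42).

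Like the count of all genes called, the count of called members depended on single libraries. It was 18 without the donor-derived library of day 56 and 8 without either endogenous library, against 11 in all 4. The 6 members tested but neither called nor at 50 CPM (Gstz1, Gstt3, Gstm7, Gsta2, Ugt1a6a and Ugt1a7c) had log2 fold changes from -0.68 to -0.40. Of the 14 members not tested, Sult1c1 and Sult1c2 had no UMI in any basal-like cells, and Gstt2 had 0 UMIs in both donor-derived and 19 and 2 in the endogenous libraries. Markers of other cell types differed as well. The summed level of 9 hillock markers, 6 to 8 of them seen, was 1074 to 1275 CPM in donor-derived and 448 to 814 CPM in endogenous basal-like cells. That of 9 tuft markers (2 or 3 seen, Trpm5, Pou2f3 and Gnat3 at 0 in all 4 libraries) was 55.3 to 61.3 and 8.46 to 9.37 CPM, and that of 8 ionocyte markers (4 to 7 seen, Foxi1 at 0 in all 4) 8.90 to 9.03 and 54 to 60.4 CPM. That of 7 dendritic markers (1 to 3 seen, Flt3 and Clec9a at 0 in all 4) was 63.6 to 126 and 10.9 to 17.6 CPM, and that of 6 fibroblast markers (1 or 2 seen, Col1a1, Col3a1 and Pdgfra at 0 in all 4) 324 to 411 and 669.9 to 744 CPM. The summed level of 10 ciliated markers was 104 to 117 and 47.1 to 48 CPM, that of 6 cycling markers 116 to 136 and 189 to 208 CPM and that of 8 macrophage markers 18.4 to 42.4 and 44.9 to 97.1 CPM. The summed level of 10 secretory markers did not separate the groups, from 3411 to 17967 CPM in donor-derived and from 11253 to 11469.6 CPM in endogenous cells. The part of these markers in the results was not tested.

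**Figure D2:**
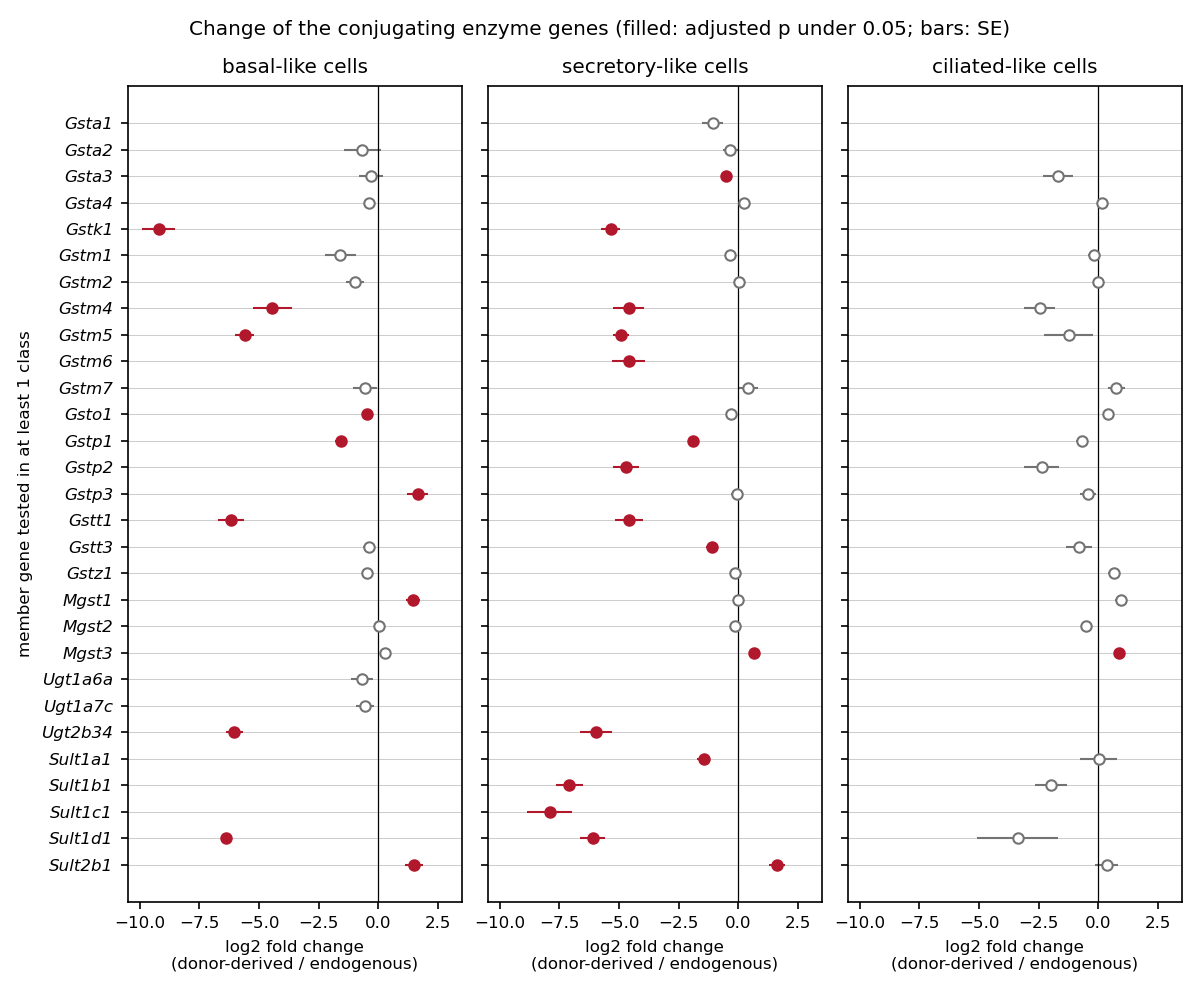
Points show the fitted log2 fold change (donor-derived over endogenous) and bars its SE for members tested in at least 1 class, filled where the adjusted p was under 0.05, with 2 libraries per group. Most filled points lie left of 0 in basal-like and secretory-like cells, and ciliated-like cells have 1 filled point, Mgst3. The points of Gstk1 in basal-like and Sult1c1 in secretory-like cells rest on 0 donor-derived UMIs, so their position depends on the fit.

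In secretory-like cells the summed CPM, which is not TMM scaled, was similar in both origins. Of 27 members tested, 14 were lower and 2 higher in donor-derived cells. Of all 10381 genes tested, 9.46% were called lower and 7.25% higher. The median log2 fold change was -1.08 over the members tested and -0.00 over all genes. Members with almost no donor-derived UMIs, such as Sult1b1, Gstt1 and Gstm4, could enter the test only through the endogenous libraries. The counts and the median of the members rest on that filter. The 10 members not tested included all Ugt1a genes. The scaling shift was widest in this class. Mgst1 was at 1544 and 1583 CPM donor-derived and at 1196 and 1362 CPM endogenous, with 1088 CPM in the control, and its scaled change was -0.02 (SE 0.12, edgeR adjusted p = 0.95).

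Sult1d1, Sult1b1 and Sult1c1 were low or undetected in donor-derived secretory-like cells. Sult1d1 was at 20.4 and 7.89 CPM donor-derived, at 659 and 719 CPM endogenous and at 545 CPM in the control, with a fold change of -6.10 (SE 0.53, edgeR adjusted p = 0.014). Without cells of the other gate's clusters the donor-derived levels were 0.944 and 3.08 CPM. Sult1b1, known for sulfating thyroid hormone and phenols, had 1 and 0 UMIs donor-derived against 15.2 and 16.9 CPM endogenous, a pooled ratio of 141 (counting interval 24.9 to 5604, edgeR adjusted p = 1.2e-06). Its control level was 0.813 CPM from 3 UMIs, so the control lay with the donor-derived libraries. Sult1c1 had 0 UMIs in both donor-derived libraries and 5.0 and 6.73 CPM in the endogenous ones, at least 6.46-fold lower (edgeR adjusted p = 7.1e-05), with 17.6 CPM in the control. Its UMIs came from few cells: 25 UMIs from 2 cells, 31 from 6 and, in the control, 65 from 16. Sult2b1 was higher, at 8.16 and 12.1 against 3.0 and 2.6 CPM, with 5.69 CPM in the control, and rose by 1.62 (SE 0.34, edgeR adjusted p = 0.004). That call was lost without the donor-derived library of day 56 (0.14), without the endogenous library of day 40 (0.051) and by DESeq2 (0.076), and the range over its alternatives was 6.6e-05 to 0.14.

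Ugt2b34 was at 0 and 0.455 CPM in donor-derived and at 25.6 and 12.2 CPM in endogenous secretory-like cells, with 10.6 CPM in the control. The pooled ratio was 56.1 (counting interval 18.9 to 275, edgeR adjusted p = 0.00052). Gstk1 had 2 and 3 UMIs (0.906 and 0.455 CPM) against 17.4 and 22.4 CPM, a pooled ratio of 34.8 (14.6 to 108, edgeR adjusted p = 5.1e-07), and the control had 23.0 CPM. Gstt1 had 0 and 3 UMIs against 7.2 and 6.94 CPM, a pooled ratio of 20.7 (6.81 to 103, edgeR adjusted p = 7.6e-05), and the control had 7.86 CPM. The endogenous and control libraries thus lay together and apart from the donor-derived ones for these 3 genes.

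Within the mu cluster the neighbours parted. Gstm5 was at 0.453 and 1.06 CPM donor-derived and at 23.8 and 21.9 CPM endogenous, with 19.2 CPM in the control (-4.92, SE 0.33, edgeR adjusted p = 2.3e-07). Gstm4, with 1 UMI in each donor-derived library, was at 5.40 and 4.77 CPM in the endogenous ones, a pooled ratio of 22.4 (counting interval 5.89 to 190.4, edgeR adjusted p = 0.00016), and Gstm6, with 0 and 2 UMIs, at 6.0 and 3.91 CPM, a ratio of 22.0 (5.76 to 187, edgeR adjusted p = 0.00029). Control levels were 5.15 CPM for Gstm4 and 2.17 CPM for Gstm6. Gstm1, between Gstm6 and Gstm4 on the chromosome, was at 627 and 849 CPM donor-derived, at 711 and 834 CPM endogenous and at 859.8 CPM in the control, and the groups overlapped (-0.37, SE 0.16, edgeR adjusted p = 0.17, and 0.0034 without the donor-derived library of day 56). Gstm2 was at 327 and 466 against 297 and 334 CPM, with 354 CPM in the control (0.03, SE 0.17, edgeR adjusted p = 0.94). Gstm7, next to Gstm5, was at 4.53 and 5.16 against 3.60 and 2.39 CPM and was not called (0.41, SE 0.39, edgeR adjusted p = 0.57).

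The pi-class genes showed a like split. Gstp1 was at 10.9 and 9.25 CPM donor-derived, at 24.8 and 34.7 CPM endogenous and at 29.0 CPM in the control (-1.90, SE 0.23, edgeR adjusted p = 5.2e-05). Gstp2, with 2 UMIs in each donor-derived library, was at 7.80 and 13.0 CPM in the endogenous libraries and 7.59 CPM in the control, a pooled ratio of 22.7 (counting interval 8.58 to 84.8, edgeR adjusted p = 3.8e-05), and reads of these 2 genes are not separable. Gstp3 was at 17.2 and 17.9 against 11.2 and 18.4 CPM, overlapping. The 4 other called members, Sult1a1, Gstt3 and Gsta3 (lower) and Mgst3 (higher), had log2 fold changes from -1.45 to 0.66. By DESeq2, 13 members were called lower and 0 higher, so Mgst3 was not called. Of all 10381 genes, DESeq2 called 552 lower and 384 higher.

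The members at 50 CPM or more that were not called in secretory-like cells, besides Gstm1, Gstm2 and Mgst1, were Gsto1, Mgst2 and Gsta4. Gsto1 was at 1491 and 1222 CPM donor-derived, at 1452 and 1263 CPM endogenous and at 1616 CPM in the control (-0.31, SE 0.12, edgeR adjusted p = 0.11, and 0.0093 without the donor-derived library of day 40). Mgst2 was at 133 and 107 against 104 and 108 CPM, with 91.3 CPM in the control (-0.14, SE 0.14, edgeR adjusted p = 0.58). Gsta4 was at 876 and 775 against 564 and 572 CPM, with 571 CPM in the control, and was not called after scaling (0.23, SE 0.11, edgeR adjusted p = 0.21). Markers of other types also moved: the summed level of 8 macrophage markers, 2 to 4 of them seen, was 147 to 251 CPM in donor-derived and 4572 to 9799 CPM in endogenous secretory-like cells, with C1qb, Adgre1 and Mrc1 at 0 in all 4 libraries, and that of 9 goblet markers was 511 to 579 and 1155 to 1182 CPM. The 10 secretory markers of the class itself summed to 322518 to 336737 CPM in donor-derived and 394165 to 427842 CPM in endogenous cells. Ionocyte markers summed to 13.1 to 16.5 and 75 to 78.1 CPM, tuft markers to 26.7 to 49.8 and 5.21 to 6.20 CPM and hillock markers to 599 to 676 and 306 to 527 CPM. Their part in the results was not tested.

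**Figure D3:**
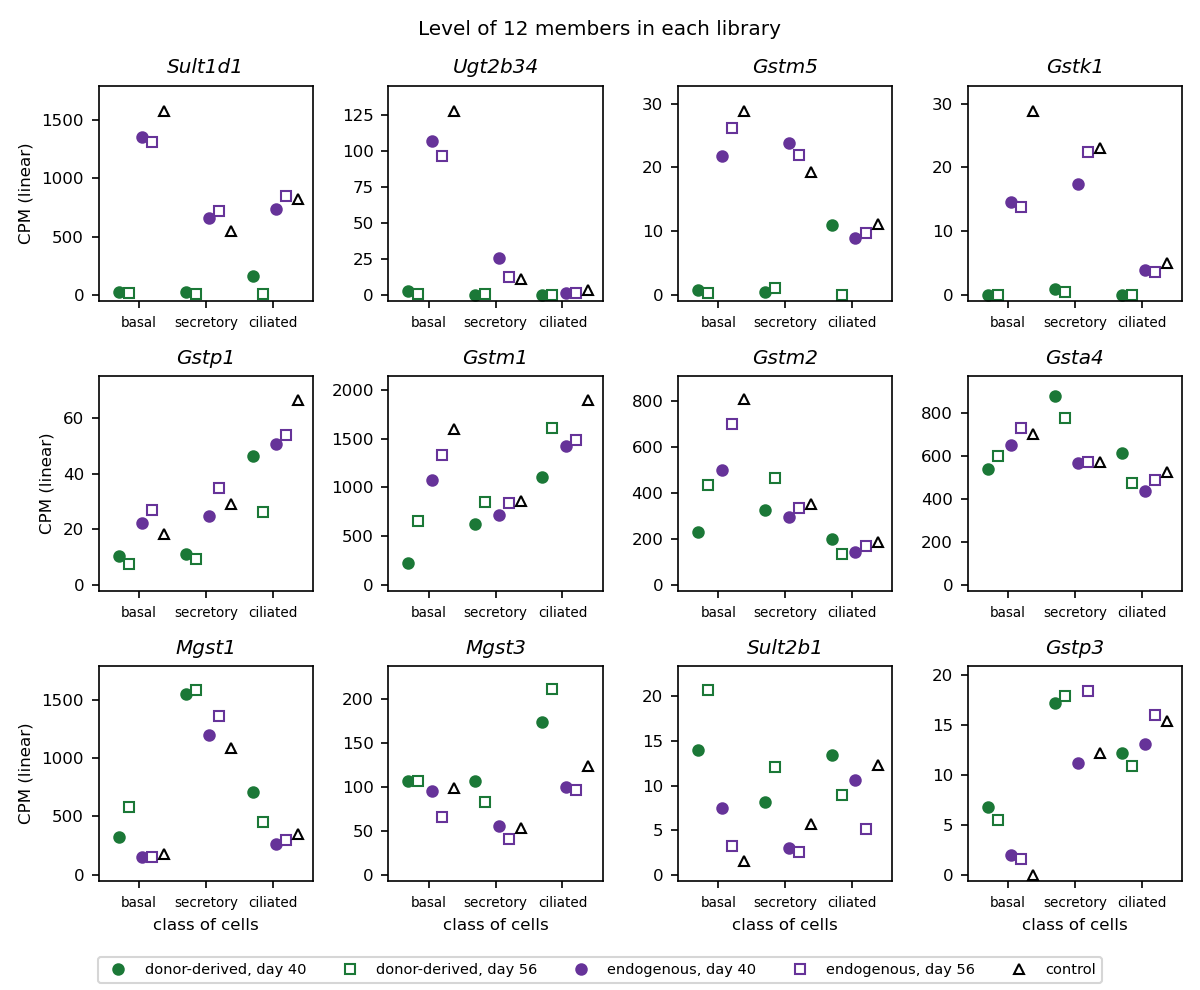
Each panel gives the level of 1 member (CPM, linear axis) in the 3 epithelial classes, with 1 point per library: green donor-derived, purple endogenous, filled day 40, open day 56, triangle control. Sult1d1, Ugt2b34, Gstm5 and Gstk1 lie at or near 0 in donor-derived basal-like and secretory-like cells, while Mgst1 in donor-derived basal-like cells (327 and 577 CPM) lies above both endogenous points.

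In ciliated-like cells 1 of 20 members tested was called, Mgst3, which was higher in donor-derived cells. Of all 10513 genes tested, 3.85% were called in either direction, and the median log2 fold change was -0.32 over the members tested and 0.01 over all genes. Mgst3 was at 173 and 211 CPM donor-derived, at 99.9 and 96.0 CPM endogenous and at 123 CPM in the control (0.88, SE 0.17, edgeR adjusted p = 0.026). The call was lost without either endogenous library (0.52 without that of day 40, 0.49 without that of day 56). The count of called members shifted when 1 library was left out, as did the count of all genes called. With the recipient as a replicate block 3 members were called, and 556 of all 10513 genes. By DESeq2 with all 4 libraries 2 members were called, and 308 of all genes.

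Sult1d1 was at 164 and 7.52 CPM donor-derived and at 737 and 849 CPM endogenous, with 821 CPM in the control (-3.38, SE 1.70, edgeR adjusted p = 0.45). Without the cells in clusters of the other gate the donor-derived levels were 2.81 and 2.14 CPM, and the fold change was -8.56 (edgeR adjusted p = 1.6e-10). In that reading, chosen after the data were seen, 7 members were called lower (Sult1d1, Gsta3, Mgst2, Gstp1, Gstp2, Sult1b1 and Gstm4) and 3 higher (Mgst1, Mgst3 and Gstz1), where 6.53% of 10518 genes were called lower and 5.13% higher. It rests on 22 and 112 donor-derived cells. Sult1b1, with no donor-derived UMI in it, could enter only through the endogenous libraries.

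Gsta3 was at 194 and 62.2 CPM donor-derived, at 419.8 and 331 CPM endogenous and at 762 CPM in the control (-1.68, SE 0.63, edgeR adjusted p = 0.29, 0.013 with the replicate block, and 6.6e-13 and 5.7e-07 without the donor-derived library of day 40 and of day 56). Mgst1 was at 709.6 and 448 against 259 and 300.5 CPM, with 349 CPM in the control (0.95, SE 0.24, edgeR adjusted p = 0.076, and 0.049 with the replicate block). The groups did not overlap for either gene, nor for Gsto1 and Mgst2, and how many of all genes did not overlap was not counted. In the filtered edgeR fit of all cells and libraries, with no block, none of these was called. Without the cells in clusters of the other gate Gsta3, Mgst1 and Mgst2 were (edgeR adjusted p = 6.9e-07, 0.011 and 0.005), and Gsto1 was not (0.34). Gstm1 was at 1105 and 1609.7 against 1425 and 1486 CPM (-0.20, SE 0.22, edgeR adjusted p = 0.68), Gstm2 at 198 and 133 against 143 and 168 CPM (-0.02, SE 0.22, edgeR adjusted p = 0.97) and Gsta4 at 612 and 472 against 437 and 485 CPM (0.14, SE 0.20, edgeR adjusted p = 0.75). All 3 overlapped. Gsto1 was at 1573 and 1225 against 989 and 993 CPM (0.40, SE 0.20, edgeR adjusted p = 0.32), Mgst2 at 132 and 97.7 against 162 and 142 CPM (-0.51, SE 0.20, edgeR adjusted p = 0.19), and Gstz1, the enzyme of tyrosine breakdown that isomerises maleylacetoacetate, at 47.6 and 79.3 against 40.0 and 37.8 CPM (0.65, SE 0.24, edgeR adjusted p = 0.17). The other 10 tested members had log2 fold changes from -2.45 to 0.75. The summed level of 8 macrophage markers, 2 to 7 of them seen, was 26.7 to 856 CPM in donor-derived and 1954 to 4027 CPM in endogenous ciliated-like cells, with Adgre1 at 0 in all 4 libraries. Cycling markers summed to 187 to 196 and 87.1 to 96.3 CPM, ionocyte markers to 26 to 90.4 and 135 to 161 CPM, dendritic markers to 17.1 to 47.6 and 4.80 to 7.55 CPM and hillock markers to 779 to 1076 and 639 to 714 CPM. Their part in the results was not tested.

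Whether a change differed between basal-like and secretory-like cells was tested directly, with library as a term. Of 30 members tested, 3 were called, and 7.44% of all 11547 genes were. Gstm2 stood at 231 and 437 CPM donor-derived against 501 and 703 CPM endogenous in basal-like cells and at 327 and 466 against 297 and 334 CPM in secretory-like cells, a difference in log2 fold change of 1.04 (SE 0.15, edgeR adjusted p = 0.00015). Gsta4 stood at 538 and 598 against 648 and 726 CPM in basal-like and 876 and 775 against 564 and 572 CPM in secretory-like cells, a difference of 0.64 (SE 0.13, edgeR adjusted p = 0.0037). That call was lost without either endogenous library (0.12 for day 40, 0.19 for day 56). For Gstp3 the difference was -1.60 (SE 0.48, edgeR adjusted p = 0.048), and it was not called without the donor-derived library of day 40 (0.13) or the endogenous library of day 56 (0.43). Without the donor-derived library of day 56, 7 members were called. The difference was not called for Sult1d1 (0.39, SE 0.21, edgeR adjusted p = 0.35). For Mgst1 it was -1.40 (SE 0.29), with an edgeR unadjusted p of 0.0077, and missed the threshold after adjustment (0.08).

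Day 40 and day 56 are 1 recipient each, so their values stand side by side without a test. In donor-derived basal-like cells Gstm1 was at 219 CPM at day 40 and 649 CPM at day 56, Gsta3 at 149 and 356 CPM and Mgst1 at 327 and 577 CPM. The same order held inside the single cluster 3, where Gstm1 was at 186 and 529.6 CPM, Gsta3 at 151 and 352 CPM and Mgst1 at 329.8 and 478 CPM. Endogenous basal-like cells had 1076 and 1333 CPM of Gstm1 and 148 and 154 CPM of Mgst1. Sult1d1 stayed low in donor-derived basal-like cells on both days.

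Several epithelial clusters carried no class name, since too few markers were detected or none was among their leading genes, and they are described by number because the members took part in the clustering. Cluster 7, of endogenous and control cells (120, 54 and 123 cells), had Sult1d1 and Ugt2b34 among its 10 leading genes. Its summed sulfotransferase level was 1689, 1913 and 1607 CPM, and Sult1d1 was at 1638, 1889 and 1586 CPM in endogenous day 40, endogenous day 56 and control cells. Ugt2b34 was at 91.1, 77.2 and 46.0 CPM there. Gstm1 was at 1112, 1831 and 1531 CPM, and Gsta4 at 789.6, 1165 and 892 CPM.

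Donor-derived cells filled clusters 0, 4 and 8. Cluster 0, led by Sftpc and Lmo1 (65 and 627 cells), had Gstm1 at 892 and 1179.6 CPM and Gstm2 at 523 and 690.1 CPM, but Sult1d1 at 0 and 12.1 CPM and no UMI of Gstk1 or Gstm5. Joined to the basal-like cells, it brought the called members to 12, of which 11 were lower. Cluster 4, led by Cldn18 and Upk3a (498 and 76 cells), had Gsto1 at 2065 and 1632 CPM, Gsta4 at 1038 and 941 CPM and Mgst1 at 1170.4 and 1522 CPM, with Gstm1 at 248 and 449 CPM. Cluster 8, led by Ccl9 and Spib (221 and 28 cells), held 1434 and 1221 CPM of all members, the lowest sums among the epithelial clusters with at least 20 donor-derived cells. Gstp3 was at 38.8 and 47.5 CPM in it. Of the 48 UMIs of Sult1e1, the estrogen sulfotransferase, in the donor-derived library of day 40, 46 came from 18 cells of cluster 8.

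Hillock-like cells, most of them in the endogenous libraries (78 and 107 cells), had Gsto1 at 2296 and 2019.6 CPM and Gsta4 at 989.9 and 1019.7 CPM, with Sult1d1 at 619 and 718 CPM. Tuft-like cells of the endogenous libraries (29 and 21 cells) held 1618 and 1464 CPM of all members. Mgst3 was at 569.6 and 586 CPM in them, while Gsto1 was at 39.9 and 73.2 CPM (counting intervals 16.0 to 82.2 and 37.8 to 128). Outside the epithelium, 35 of the 37 UMIs of Sult5a1 in the endogenous library of day 56 came from 14 of 21 fibroblast cells, and Gstt2 was at 41.5 and 33.1 CPM in B cells of the endogenous libraries. Each donor-derived library held 1 UMI of Gstt2.

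**Figure D4:**
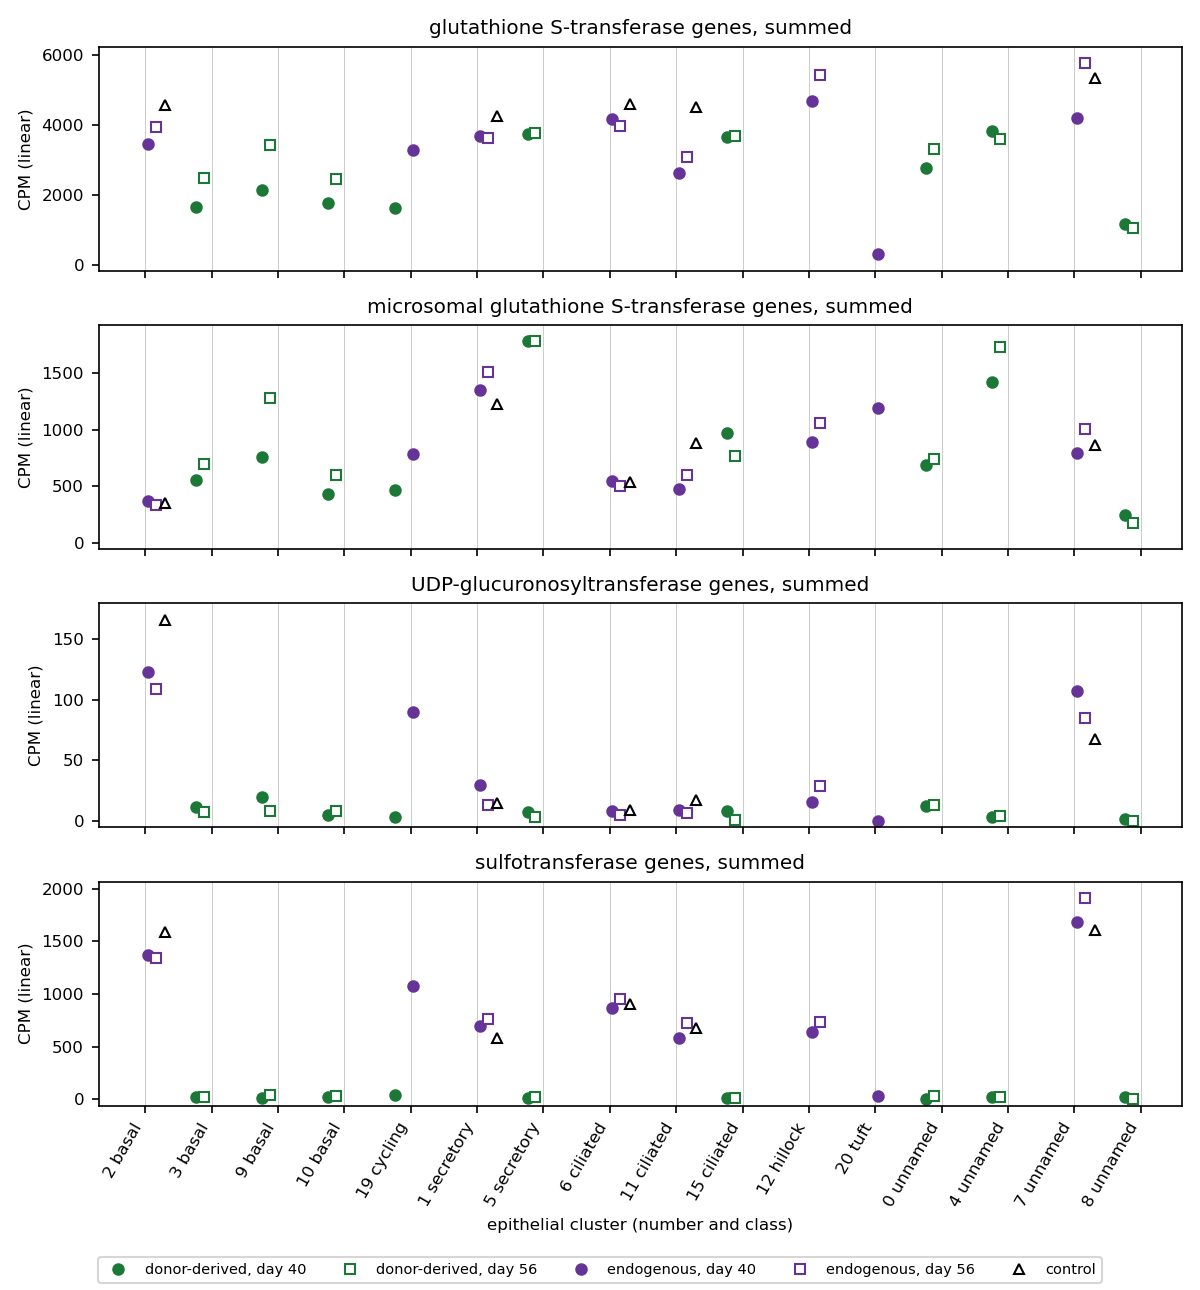
Each panel gives the summed level of 1 family (CPM, linear axis) in the epithelial clusters, with 1 point per library that had at least 20 cells there: green donor-derived, purple endogenous, filled day 40, open day 56, triangle control. Sulfotransferase sums lie near 0 in every donor-derived point and between 584 and 1913 CPM in endogenous and control points other than those of tuft-like cells.

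The genes that supply or complete conjugation were counted in the same fits, from fixed lists, and each list is given with its median log2 fold changes, for the basal-like class first, then the secretory-like and the ciliated-like one. Over all genes the medians were 0.01, -0.00 and 0.01, and the shares called were 8.36% lower and 7.91% higher in basal-like, 9.46% lower and 7.25% higher in secretory-like and 3.85% in either direction in ciliated-like cells. In every list, a gene with almost no UMIs in 1 group could enter the test only through the other group. Of the genes that make or use glutathione, 4 were lower and 2 higher of 18 tested in basal-like cells, 8 of 15 were lower in secretory-like cells (3 by DESeq2) and 2 of 17 in ciliated-like cells (1 lower and 1 higher by DESeq2), with medians of -0.18, -0.43 and -0.10. Anpep, an aminopeptidase that trims glutathione conjugates toward mercapturates, was at 0.487 and 0.376 CPM donor-derived against 22.9 and 28.2 CPM endogenous in basal-like cells (-5.89, SE 0.35, edgeR adjusted p = 3.2e-05). Anpep was at 1.36 and 0.455 against 18.4 and 20.2 CPM in secretory-like cells (-5.04, SE 0.38, edgeR adjusted p = 6.9e-07). Gclc, which starts glutathione synthesis, was at 147 and 115 against 248 and 285 CPM in ciliated-like cells (-1.13, SE 0.19, edgeR adjusted p = 0.017), a call lost without the endogenous library of day 40 (0.21) or day 56 (0.29).

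Cofactor supply for glucuronidation and sulfation gave 2 lower genes of 12 tested in secretory-like cells (9.46% over all genes) and 2 of 10 in ciliated-like cells (1 by DESeq2, 3.85% over all genes), with medians of 0.01, -0.17 and -0.36. Papss2, which makes the sulfate donor PAPS, had 0 and 0.303 CPM donor-derived against 5.40 and 6.51 CPM endogenous in secretory-like cells (edgeR adjusted p = 0.00011). The sulfate carrier Slc26a2 was at 44.0 and 44.4 against 126 and 117 CPM in ciliated-like cells (-1.56, SE 0.17, edgeR adjusted p = 0.0033), not called without the endogenous library of day 40 (0.065). In basal-like cells 0 of 12 such genes were called by edgeR, with 0 at an unadjusted p under 0.05 and 0 by DESeq2. Among other conjugating enzymes 4 of 7 tested were lower in basal-like cells (8.36% over all genes), 4 of 6 in secretory-like cells (9.46%) and 0 of 5 in ciliated-like cells (edgeR, 4 lower at an unadjusted p under 0.05, 0 by DESeq2), with medians of -1.67, -1.58 and -1.11. As3mt, the arsenite methyltransferase, was at 0.244 and 0.376 against 23.4 and 23.0 CPM in basal-like cells (-6.30, SE 0.38, edgeR adjusted p = 3.2e-05). Hnmt, which methylates histamine, had no UMI in donor-derived secretory-like cells and 8.0 and 9.77 CPM in endogenous ones (edgeR adjusted p = 1.4e-05). As3mt and Hnmt, with almost no donor-derived UMIs there, could enter the test only through the endogenous libraries. The counts and medians of this list rest on that filter.

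Of the oxidative and reductive enzymes, 12 were lower and 4 higher of 28 tested in basal-like cells (8.36% and 7.91% over all genes), and 10 and 6 of 30 in secretory-like cells (9.46% and 7.25%), with 3 of 26 lower in ciliated-like cells (3.85% in either direction). The medians were -0.71, -0.50 and -0.40. Nqo1, the quinone reductase, was at 0.366 and 0 CPM donor-derived against 5.51 and 8.46 CPM endogenous in basal-like cells (edgeR adjusted p = 0.0021). The list of Nrf2 target genes outside the families shares genes with the lists above, among them Nqo1 and Gclc, so its counts are not separate from theirs. Of its genes, 5 were lower and 1 higher of 20 in basal-like cells (8.36% and 7.91% over all genes, 5 and 2 by DESeq2). Lower were also 10 of 20 in secretory-like cells (9.46%) and 5 of 19 in ciliated-like cells (3.85% in either direction). The medians were -0.15, -0.46 and -0.24. Gpx2, an epithelial glutathione peroxidase, was at 58.0 and 73.9 against 269.6 and 281 CPM in basal-like cells (-2.19, SE 0.15, edgeR adjusted p = 5.1e-05). Receptors and regulators gave 2 higher genes of 13 in basal-like cells (7.91% over all genes, 1 by DESeq2), 1 lower and 1 higher of 12 in secretory-like cells (0 by DESeq2) and 0 of 14 in ciliated-like cells (edgeR, 2 lower at an unadjusted p under 0.05, 0 by DESeq2), with medians of 0.12, 0.05 and -0.09. In basal-like cells these were Bach1, a repressor at antioxidant elements, at 76.5 and 62.6 against 25.4 and 20.9 CPM (1.45, SE 0.18, edgeR adjusted p = 0.0011), and its partner Mafg at 75.7 and 71.5 against 42.5 and 43.1 CPM (0.66, SE 0.14, edgeR adjusted p = 0.013), the latter lost without the endogenous library of day 40 (0.12) or day 56 (0.093). In secretory-like cells Ahr, the dioxin receptor, was at 126 and 162 against 75.2 and 87.7 CPM (0.53, SE 0.15, edgeR adjusted p = 0.03), lost without the donor-derived library of day 56 (0.22) or the endogenous library of day 40 (0.36) or day 56 (0.074). Maff, which can pair with Bach1, was at 4.08 and 5.77 against 7.0 and 10.2 CPM there (-1.01, SE 0.33, edgeR adjusted p = 0.048), lost without any 1 of the 4 libraries (0.081 and 0.075 without the donor-derived library of day 40 or day 56, 0.065 and 0.39 without the endogenous one).

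Efflux and uptake carriers gave 1 lower and 1 higher of 8 tested in basal-like cells, 3 lower and 1 higher of 7 in secretory-like cells (1 and 0 by DESeq2) and 0 of 6 in ciliated-like cells (edgeR, 1 lower and 1 higher at an unadjusted p under 0.05, 0 by DESeq2). The medians were 0.21, -0.48 and 0.19. The exporter Abcc3 was at 10.1 and 5.08 CPM donor-derived against 27.8 and 26.6 CPM endogenous (-1.92, SE 0.31, edgeR adjusted p = 0.0043) and Abcc5 at 32.3 and 38.8 against 12.4 and 8.86 CPM (1.58, SE 0.23, edgeR adjusted p = 0.0021), both in basal-like cells. The call of Abcc3 was lost without the endogenous library of day 40 (0.054). Of 13 genes of liver, pancreas and gut, organs in which these families are also prominent, 2 could be tested in basal-like cells and both were higher in donor-derived ones, 1 was lower and 2 were higher of 3 in secretory-like cells, and 1 of 2 was higher in ciliated-like cells. Hnf4g, a nuclear receptor of gut and liver, was the lower one, at 6.0 and 2.6 CPM in endogenous secretory-like cells and with no UMI in the donor-derived ones (edgeR adjusted p = 0.0007). Pdx1, a regulator of pancreas and duodenum, was at 6.70 and 4.70 CPM in donor-derived basal-like cells with no UMI in endogenous ones (edgeR adjusted p = 0.0036). Afp, a fetal liver protein, was at 12.2 and 6.58 against 0 and 0.806 CPM in basal-like cells (4.63, SE 0.82, edgeR adjusted p = 0.007), lost without the endogenous library of day 40 (0.057). Hnf4g, without a donor-derived UMI, and Pdx1, without an endogenous one, could enter the test only through the group in which they were seen. The directions counted for this list rest on that filter.

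Around Sult1d1, 26 genes of the files lie within 500 kb, itself included. In basal-like cells Sult1d1 was the only 1 of them with enough UMIs to be tested. Sult1b1 next to it had 2 and 1 UMIs in donor-derived and 15 and 5 in endogenous basal-like cells, a pooled ratio of 14.8 (counting interval 4.38 to 77.5), and Sult1e1 had 0 and 0 against 1 and 2 UMIs. The casein genes and the other Ugt2 genes of that stretch had no UMI in basal-like cells of any library. In the theta cluster, Gstt1 and Gstt2 were low or undetected in donor-derived basal-like cells, and Gstt3 was at 12.1 and 14.7 CPM against 14.9 and 17.3 CPM endogenous (-0.40, SE 0.23, edgeR adjusted p = 0.31).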

How the data were processed

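The deposited matrices hold UMI counts per gene and cell for 5 libraries of mouse trachea, made by the authors with droplet sequencing. Tools listed in the submitters' processing notes are Seurat, STARsolo and Cell Ranger, with GRCh38 and GRCm38 as builds; versions and roles are not given in the sources used here. From these counts, barcodes with over 10% human UMIs, under 500 genes or over 20% mitochondrial UMIs were left out, as were called doublets. Cells were clustered with scanpy 1.11.5 (2000 variable genes, 5 of them members; 30 components; 15 neighbours; Leiden resolution 1.0). A cluster took a class name where at least 3 of that class's markers were detected in 10% of its cells and at least 1 was among its 10 leading genes. UMIs were summed per library and class and tested with edgeR 4.0.16 (TMM, filterByExpr, robust quasi-likelihood test, Benjamini-Hochberg), 2 donor-derived against 2 endogenous libraries. An SE is the log2 fold change divided by the square root of F. With 2 libraries per group, from 2 recipients at different days, p-values measure only the spread between these libraries.

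Pairing comes from the design text: both libraries of a day are from the same recipient. Over genes, the day 40 minus day 56 differences of both groups correlated with r = 0.307 (basal-like), 0.146 (secretory-like) and -0.00404 (ciliated-like). The recipient as a replicate block was an alternative, as were DESeq2 1.42.0, other scaling, no filter, each library left out and other clusterings. The scripts were tested on simulated data. The control library and single clusters were described without a test. Intervals are exact, at 95%, and cover counting error only; a count of 0 was set to 3 UMIs per library for a bound.

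The members and gene lists were chosen with earlier results of these data known. Values are given for called members (up to 12 per class, by size of change), for uncalled members with a mean of at least 50 CPM, and for up to 2 called genes per list and class. Annotation was GENCODE vM21, and promoter sequences are from RefSeq, GRCm38.p6.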

Additional observations from a re-analysis of the deposited data

Results flagged for a closer look

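The change between donor-derived and endogenous cells differed between basal-like and secretory-like cells for 3 of 30 members tested. The difference itself was tested (edgeR interaction term over 2 libraries per group). That test called 7.44% of all 11547 genes, so the count of members lies near the share of all genes. The change in secretory-like minus that in basal-like cells, on the log2 scale, was 1.04 for Gstm2, 0.64 for Gsta4 and -1.60 for Gstp3. With the cluster led by Cldn18 and Upk3a joined to the secretory-like cells the adjusted p was 0.066 for Gstm2 and 0.09 for Gsta4, and with the cluster led by Sftpc and Lmo1 joined to the basal-like cells it was 0.11 for Gstm2 and 0.19 for Gstp3. Both joins were chosen after the data were seen. Which cells are counted in a class therefore changes these calls.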

How the results depend on the processing

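The direction of every named member's change was the same under each alternative in which either fit called it: 627 values kept their side of the threshold, 33 lost a call and 43 gained one. Called members in basal-like cells ranged from 8 to 18 when 1 library was left out, against 11 with all. In secretory-like cells that range was 13 to 18 against 16. In ciliated-like cells 1 member was called, against 3 with the recipient as a replicate block, 4 without a filter, 2 by DESeq2, 0 to 12 with 1 library left out, 10 without cells in clusters of the other gate and 9 without them and with the block; the last 2 were added after the data were seen. Members whose change differed between classes numbered 3, against 5 without a filter, 6 at Leiden resolution 0.5, 5 with the members left out of the clustering, 6 with doublets kept and 3 to 7 with 1 library left out. The replicate block ended no call in basal-like or secretory-like cells. Over all genes, called genes ranged over the alternatives from 816 to 3338 in basal-like cells (1805), from 885 to 2289 in secretory-like cells (1735), from 50 to 2110 in ciliated-like cells (405) and from 407 to 1120 for the difference between classes (859). The cause of these shifts was not tested. Members with few UMIs, such as the Ugt1a genes, Gstm3 and Sult1c2, could not be told apart between groups at this depth, and 2 libraries per group limit every call.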
